A study of Mus musculus with 4 samples.

Results

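The striatal cAMP set described here holds 10 genes, Ppp1r1b, Pde10a, Pde1b, Adcy5, Gnal, Gng7, Rgs9, Ptpn5, Arpp21 and Rasd2, chosen by name from 22363 genes listed in spatial transcriptomic (Visium) data of mouse brain. All 10 were present in each of the 4 arrays, and their levels were followed in 6 regions of 8 mice. The regions were the caudate putamen (CP), the lateral septal complex (LSX) and white matter on striatal sections, and the substantia nigra (SN), the ventral tegmental area (VTA) and the thalamus on midbrain sections.

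Medium spiny neurons, the projection neurons of the striatum, turn dopamine and adenosine signals into changes of cyclic AMP (cAMP). In these cells the G protein subunits encoded by Gnal and Gng7 couple dopamine and adenosine receptors to adenylyl cyclase 5 (Adcy5), and the phosphodiesterases Pde10a and Pde1b break the cyclic nucleotides down. Downstream, protein kinase A phosphorylates DARPP-32 (Ppp1r1b), which then inhibits protein phosphatase 1, and STEP (Ptpn5), a tyrosine phosphatase whose phosphorylation lowers its activity. Rgs9 speeds the shut-off of G protein signalling, Arpp21 encodes a cAMP-regulated phosphoprotein that binds RNA, and Rasd2 encodes Rhes, a striatum-enriched small GTP-binding protein.

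All 8 mice were of a DAT Cre line, labelled DAT (iCre/iCre), in which Cre is made where the dopamine transporter gene is active. Mice of the GqCNO group (n = 3), males of 3 to 4 months as labelled, had received bilateral midbrain injections of a conditional AAV for hM3Dq fused to mCherry, an activating designer receptor, and drank its ligand clozapine-N-oxide (CNO, 300 mg/L) in 2% sucrose water for 1 week. GqVeh mice (n = 3), of the same sex and age, had the same injection and drank sucrose water without CNO, and CNO alone mice (n = 2) were not injected and drank CNO in sucrose water; their sex and age are not given in the labels. The mice lived singly with a running wheel, and GqVeh and CNO alone together make up the 5 control mice. The receptor was thus directed to dopamine neurons of the midbrain, and the striatal cells described here lay in their target area.

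Each value is the level of a gene in the RNA of 1 region of 1 mouse, per 10000 unique molecular identifiers (UMIs, 1 per captured transcript). The discs of the arrays take up RNA from several cells each, so fewer cells of a type and less RNA per cell cannot be told apart. Totals ran over 4300381 to 7977003 UMIs in the CP, 80525 to 1354667 in the LSX, 119422 to 405313 in white matter, 7779 to 71906 in the SN, 25808 to 350222 in the VTA and 80837 to 444790 in the thalamus. The SN of GqCNO mice 781 and 801 was 1 disc each, the LSX of GqCNO mouse 804 was 7 discs and that of GqVeh mouse 784 was 6, and GqCNO mouse 801 had no thalamus column. Discs of the CP were picked with Ppp1r1b, those of the LSX with Prkcd and those of white matter with Mbp, and SN and VTA discs with Th, Slc6a3 and Slc18a2. Penk, a peptide gene of indirect-pathway neurons, fitted the striatal region names, between 22.0 and 32.1 in the CP and between 0.443 and 2.73 in the LSX. Not all markers went this way in control mice. Of 5 tested indirect-pathway markers, 4 were higher and 1 lower in the CP than in the LSX (limma, adjusted p under 0.05). Of 4 tested direct-pathway markers, 3 were higher and 1 lower, beside 13.1% and 19% of all tested genes. Th, the rate-limiting enzyme of dopamine synthesis, lay between 5.14 and 27.9 in the SN and between 0.0558 and 0.142 in the CP. Its SN level describes the choice of discs, and midbrain and striatal arrays were normalized separately, so it checks no region name. The dopamine receptor gene Drd1 was at 0 UMIs in the SN of all 8 mice and in the thalamus of all 7.

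In the 5 control mice the set was far higher in the CP than in the septum beside it, and Gnal and Ptpn5 stood apart from the other members by their levels in the septum. Against the LSX, 9 of 9 tested members were higher in the CP at an adjusted p under 0.05 (limma on differences within mice, Benjamini-Hochberg over 11625 genes), where 13.1% of all tested genes were called higher and 19% lower. Against white matter the same 9 were higher, where 25.7% of 11720 tested genes were called higher and 14.9% lower. The median log2 difference of the 9 was 2.95 against the LSX and 2.94 against white matter, beside -0.05 and 0.11 over all tested genes. Ppp1r1b marked the discs of the CP for the authors and was not tested in these comparisons.

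For the inhibitor of protein phosphatase 1, Ppp1r1b, the level averaged 24 ± 1.26 in the CP, 0.653 ± 0.109 in the LSX and 2.03 ± 0.450 in white matter (SD, n = 5 each). Its CP value describes the choice of discs and nothing more. Between the regions not chosen with it, Ppp1r1b was lower in the LSX than in white matter in 5 of 5 mice, by a log2 difference of -1.37 ± 0.16 (SE, adjusted p = 4.13e-06). It was the only member called lower there (10.8% of 11884 tested genes were).

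The cyclase and its G protein subunits did not share a pattern. Adcy5 averaged 6.62 ± 0.941 in the CP, 1.17 ± 0.215 in the LSX and 1.04 ± 0.186 in white matter (SD, n = 5). Gng7, the gamma subunit that pairs with the Gnal product in striatal neurons, averaged 7.91 ± 1.30, 0.853 ± 0.167 and 1.03 ± 0.596 in the same regions. Both thus had like levels in the septum and in white matter, and neither was called between them (Adcy5 log2 difference 0.14 ± 0.17, adjusted p = 0.547; Gng7 -0.08 ± 0.20, adjusted p = 0.776). Gnal, the alpha subunit of olfactory and striatal neurons, averaged 3.82 ± 0.889 in the CP, 1.92 ± 0.572 in the LSX and 0.453 ± 0.139 in white matter. It was 1.99-fold higher in the CP than in the LSX (log2 difference 0.94 ± 0.10, adjusted p = 4.62e-05) and 4.23-fold higher in the LSX than in white matter (1.68 ± 0.21, adjusted p = 9.02e-06), so its levels formed 3 steps.

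Both phosphodiesterases were low outside the CP. Pde10a, the main cyclic nucleotide phosphodiesterase of medium spiny neurons, averaged 6.13 ± 0.908 in the CP, 0.303 ± 0.128 in the LSX and 0.317 ± 0.142 in white matter, a 20.2-fold difference from the septum. Pde1b, which calcium and calmodulin activate, averaged 10.8 ± 1.12, 0.965 ± 0.164 and 1.26 ± 0.196, an 11.2-fold difference. Rgs9 showed the widest ratio among the tested members, 29.6-fold, with 5.89 ± 0.296 in the CP and 0.199 ± 0.0562 in the LSX (log2 difference 3.94 ± 0.17, adjusted p = 1.97e-07). With no filter on low genes its log2 difference stayed at 3.94 and its adjusted p was 0.148. The phosphoprotein gene Arpp21 averaged 15.4 ± 1.57 in the CP against 1.09 ± 0.195 in the LSX, and Rasd2 averaged 8.0 ± 1.22 against 1.17 ± 0.281.

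Ptpn5 differed least between striatum and septum. It averaged 5.79 ± 0.490 in the CP, 3.91 ± 0.986 in the LSX and 0.625 ± 0.329 in white matter. The log2 difference between CP and LSX was 0.57 ± 0.14 (adjusted p = 0.00935, higher in the CP in 5 of 5 mice; adjusted p = 0.0880 with no filter), and that between LSX and white matter was 2.37 ± 0.24 (adjusted p = 7.50e-07). With Gnal and Rasd2 (0.68 ± 0.17, adjusted p = 0.00458) it was 1 of 3 members called higher in the LSX than in white matter, where 24% of all tested genes were. Without GqVeh mouse 784, whose LSX was 6 discs, 9 of 9 members were still called between CP and LSX, and 5 members were called between LSX and white matter, Rgs9 in addition to the 4 named.

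**Figure D1:**
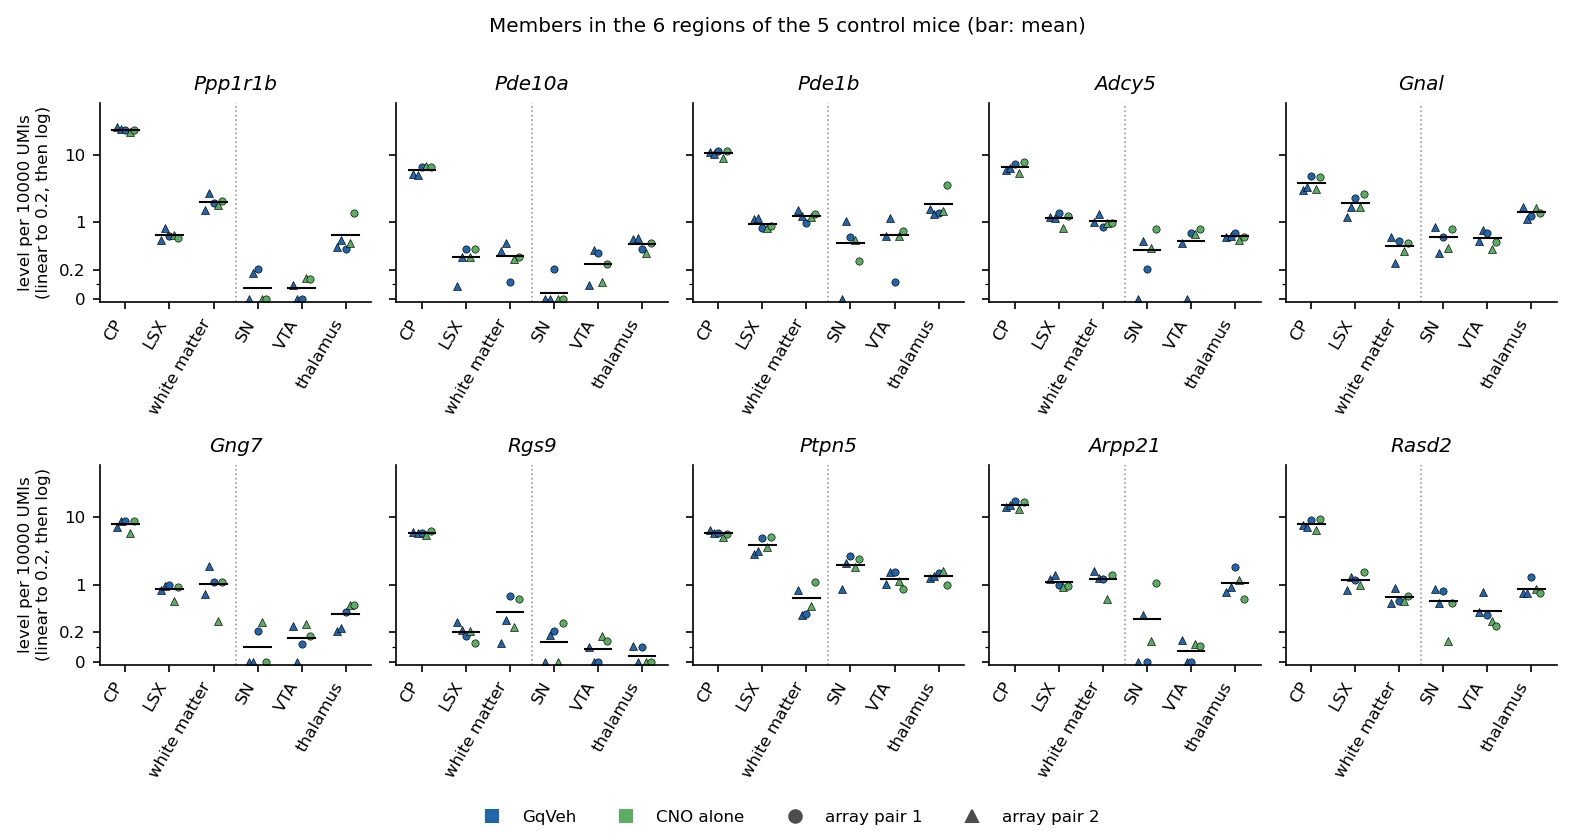
Level of each member per 10000 UMIs in the 6 regions of the 5 control mice, 1 point per mouse, on an axis that is linear up to 0.2 and logarithmic above. The CP points lie above all others for each gene, and in the LSX the points of Ptpn5 (2.88 to 5.01) and Gnal (1.21 to 2.66) lie above their points in white matter. Midbrain and striatal arrays were normalized separately.

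**Figure D2:**
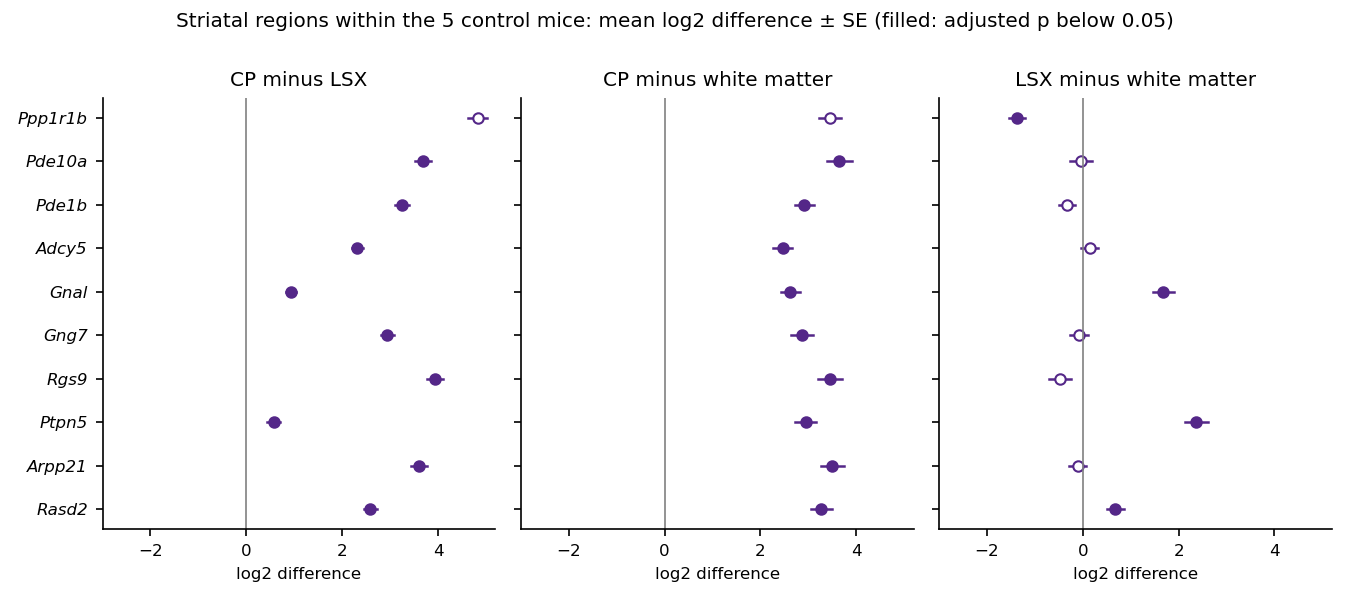
Mean log2 difference within mice ± SE (n = 5 control mice) for CP minus LSX, CP minus white matter and LSX minus white matter. Filled points have an adjusted p under 0.05 (limma) and open points do not or, for Ppp1r1b in the CP, were not tested; Rgs9 reaches 3.94 and Ptpn5 0.57 for CP minus LSX.

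The start regions of 4 members are shown because these genes span that pattern: Rgs9 had the widest ratio between CP and LSX among the tested members, Rasd2 and Adcy5 lay between, and Ptpn5, with 2 annotated starts, had the narrowest. Each window runs from 250 bases before to 50 bases after a start in the RefSeq annotation of GRCm38.p6 and is given 5′ to 3′ on the strand of the gene. Capitals mark GC boxes (GGGCGG, or CCGCCC on the opposite strand) and TATA boxes (TATAAA, or TTTATA). The windows are chr11:109298132-109298431 (minus strand) for Rgs9, chr16:35154614-35154913 (plus strand) for Adcy5, chr8:75213694-75213993 (plus strand) for Rasd2, and chr7:47133635-47133934 and chr7:47132549-47132848 (minus strand) for Ptpn5.
Rgs9: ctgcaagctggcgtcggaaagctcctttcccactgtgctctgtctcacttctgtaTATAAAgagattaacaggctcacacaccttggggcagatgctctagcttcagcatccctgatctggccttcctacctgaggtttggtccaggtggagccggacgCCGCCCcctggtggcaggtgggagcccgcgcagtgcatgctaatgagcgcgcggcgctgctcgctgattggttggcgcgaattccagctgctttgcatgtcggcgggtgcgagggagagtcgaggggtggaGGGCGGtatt
Adcy5: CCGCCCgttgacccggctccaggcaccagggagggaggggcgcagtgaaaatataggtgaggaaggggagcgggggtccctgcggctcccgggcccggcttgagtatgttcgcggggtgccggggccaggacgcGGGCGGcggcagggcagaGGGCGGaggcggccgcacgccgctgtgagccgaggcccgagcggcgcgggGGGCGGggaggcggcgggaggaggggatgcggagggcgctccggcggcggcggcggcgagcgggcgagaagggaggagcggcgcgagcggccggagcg
Rasd2: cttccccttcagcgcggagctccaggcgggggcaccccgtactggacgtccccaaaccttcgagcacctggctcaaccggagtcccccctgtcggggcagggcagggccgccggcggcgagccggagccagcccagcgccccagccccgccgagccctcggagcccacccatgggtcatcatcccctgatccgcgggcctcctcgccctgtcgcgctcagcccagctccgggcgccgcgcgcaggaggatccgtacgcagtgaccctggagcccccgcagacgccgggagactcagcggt
Ptpn5 start 1: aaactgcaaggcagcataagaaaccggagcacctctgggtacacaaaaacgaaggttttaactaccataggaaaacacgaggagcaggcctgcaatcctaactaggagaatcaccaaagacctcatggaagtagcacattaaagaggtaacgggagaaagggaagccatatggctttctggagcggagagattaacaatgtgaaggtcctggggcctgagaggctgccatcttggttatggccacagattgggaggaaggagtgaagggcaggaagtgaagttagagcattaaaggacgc
Ptpn5 start 2: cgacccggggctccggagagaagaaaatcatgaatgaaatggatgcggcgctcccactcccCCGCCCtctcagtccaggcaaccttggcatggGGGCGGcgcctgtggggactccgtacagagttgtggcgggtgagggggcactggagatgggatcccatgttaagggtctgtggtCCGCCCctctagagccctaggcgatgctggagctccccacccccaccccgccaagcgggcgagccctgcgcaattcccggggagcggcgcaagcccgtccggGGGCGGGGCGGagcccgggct

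The Adcy5 window held 4 GC boxes at a GC content of 79%, the Rgs9 window held 2 GC boxes and 1 TATA box at 60.3%, and the Rasd2 window held neither at 74.7%. The 2 windows of Ptpn5 differed from each other, with no such motif at 48.7% GC at start 1 and 5 GC boxes, 1 overlapping pair among them, at 69% at start 2. Over the 32851 windows of the table, 35.7% held a GC box and 13.6% a TATA box on either strand, and the median GC content was 52.7%. The cAMP response element (TGACGTCA), the site of the transcription factor CREB, was in none of the 5 windows and in 1.79% of all windows. Its shorter form TGACG was in none of the 5 either and in 20.8% of all windows. A match of letters is a description of these windows and not a binding site.

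On midbrain sections the levels were low, and the members called between regions were lower in the SN or the VTA than in the thalamus. No member was called between SN and VTA by limma (6 tested, 0 of them at an unadjusted p under 0.05; 0% of 7121 genes were called in either direction). Against the thalamus, 5 of 9 tested members were lower in the SN (Ppp1r1b, Pde10a, Pde1b, Gnal and Arpp21), beside 9.4% of 7488 genes. In the VTA 5 of 9 were lower (Ppp1r1b, Pde1b, Gnal, Arpp21 and Rasd2), beside 13.5% of 7388 genes. Under the filter of 0.25 were Ppp1r1b and Pde10a in the SN (means of 0.0755 and 0.0404). So were Ppp1r1b and Arpp21 in the VTA (0.0756 and 0.0729). These were fitted only through the thalamus, where each was high, so their calls with the filter are a description. Only their results with no filter, given below, are free of this choice. Pde1b averaged 0.496 ± 0.395, 0.660 ± 0.373 and 1.88 ± 0.959 in SN, VTA and thalamus, with log2 differences from the thalamus of -1.28 ± 0.28 and -1.03 ± 0.21. Arpp21 averaged 0.309 ± 0.442, 0.0729 ± 0.0685 and 1.06 ± 0.477 in the same order. Ptpn5 was not among the genes called, with SN, VTA and thalamus levels of 1.95 ± 0.684, 1.21 ± 0.308 and 1.33 ± 0.236, and a log2 difference between SN and thalamus of 0.37 ± 0.28 (adjusted p = 0.397). The 5 calls between SN and thalamus were 3 without GqVeh mouse 802 (Gnal and Arpp21 lost) and 3 without GqVeh mouse 785 (Pde10a and Gnal lost), and 2 with a smaller constant (Pde10a and Ppp1r1b) or with no filter (Pde10a and Gnal). The 5 calls between VTA and thalamus were 3 with no filter (Gnal, Arpp21 and Ppp1r1b).

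The study asked what sustained activation of dopamine neurons does to the brain, and for the set the question is whether its levels in the target region of these neurons changed. In the CP, no member was called between GqCNO mice and all controls (10 tested, limma adjusted p = 0.999 for each, and no gene of 10813 was called, 0%; 3.7% of genes had an unadjusted p under 0.05, and no member did). The log2 differences lay between -0.20 (Ptpn5) and 0.10 (Arpp21), with a median of -0.05 beside -0.00 over all tested genes. Ppp1r1b, with which the discs of the CP were picked, was in this fit, and its result there is a description. For the 9 other members, a 2-fold change lay outside the 95% interval. edgeR on the UMIs and the methods' t-test also called no member in this comparison.

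Ppp1r1b stood at 25.6, 23.4 and 22.9 in GqCNO mice 781, 801 and 804, at 25.9, 24.1 and 23.7 in GqVeh mice 784, 785 and 802, and at 22.4 and 23.6 in CNO alone mice C1W7 and C2W2. The means were 24 ± 1.48 and 24 ± 1.26 (SD, n = 3 GqCNO and 5 control mice). Since discs of the CP were picked with Ppp1r1b, its level there is tied to the choice of discs in each mouse, and nothing is read from how the groups compare. Among the genes that make and break down cAMP, Adcy5 stood at 5.72, 5.78 and 6.45 in GqCNO mice, against 6.05, 6.39 and 7.34 in GqVeh and 5.52 and 7.82 in CNO alone mice. Its log2 difference was -0.14 (95% interval -0.42 to 0.14). Pde10a stood at 6.51, 6.12 and 6.74 in GqCNO mice, against 5.24, 5.03 and 6.77 in GqVeh and 6.82 and 6.78 in CNO alone mice. Pde1b stood at 9.68, 9.18 and 9.93, against 11.2, 10.4 and 11.6 in GqVeh and 9.01 and 11.7 in CNO alone mice. The log2 differences were 0.09 (-0.16 to 0.34) for Pde10a and -0.16 (-0.40 to 0.08) for Pde1b, and CNO alone mouse C1W7 was below all 3 GqCNO mice for Pde1b.

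The G protein genes varied more between mice than between groups. Gnal stood at 3.18, 3.70 and 4.31 in GqCNO mice, against 3.05, 3.34 and 4.90 in GqVeh and 3.15 and 4.67 in CNO alone mice. Gng7 stood at 7.45, 7.06 and 7.67, against 7.29, 8.70 and 8.79 in GqVeh and 5.90 and 8.89 in CNO alone mice. The log2 differences were -0.01 (95% interval -0.40 to 0.38) and -0.08 (-0.38 to 0.22). Rgs9, which acts on the G proteins of dopamine and opioid receptors, averaged 5.49 ± 0.257 in GqCNO and 5.89 ± 0.296 in control mice (-0.10, -0.31 to 0.11). Rasd2 averaged 8.07 ± 0.382 and 8.0 ± 1.22 in GqCNO and control mice (0.03, -0.26 to 0.31).

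Of the substrates, Arpp21 averaged 16.4 ± 0.830 in GqCNO and 15.4 ± 1.57 in control mice, and Ptpn5 had the lowest unadjusted p of the set. Ptpn5 stood at 5.34, 4.73 and 4.97 in GqCNO mice, against 6.44, 5.94 and 5.79 in GqVeh and 5.07 and 5.74 in CNO alone mice. All 3 GqCNO mice were below the 3 GqVeh mice, and CNO alone mouse C1W7 lay among the GqCNO values. The log2 difference was -0.20 from all controls (95% interval -0.42 to 0.01, unadjusted p = 0.0624) and -0.27 from GqVeh (-0.51 to -0.03, unadjusted p = 0.0322, adjusted p = 0.999; 4.04% of genes had an unadjusted p under 0.05 and 0.0462% were called). The two-sided exact permutation test over the 56 splits of 8 mice gave p = 0.0714 for Ptpn5 (smallest possible 0.0179; 0.670 after Benjamini-Hochberg over 60 tests). The 10 members, Ppp1r1b included, summed to 90.2 to 93.5 in GqCNO mice and 83.4 to 102 in controls. Direct-pathway markers summed to 9.43 to 12 and 10.8 to 13.1, and indirect-pathway markers to 31.1 to 38.3 and 27.8 to 36.3. Blood cell genes summed to 12 to 14.4 in the CP of GqCNO mice and 5.23 to 12.6 in that of controls, with 5 of 5 at an unadjusted p under 0.05 and none called, and the part of blood in the differences of the set was not tested.

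**Figure D3:**
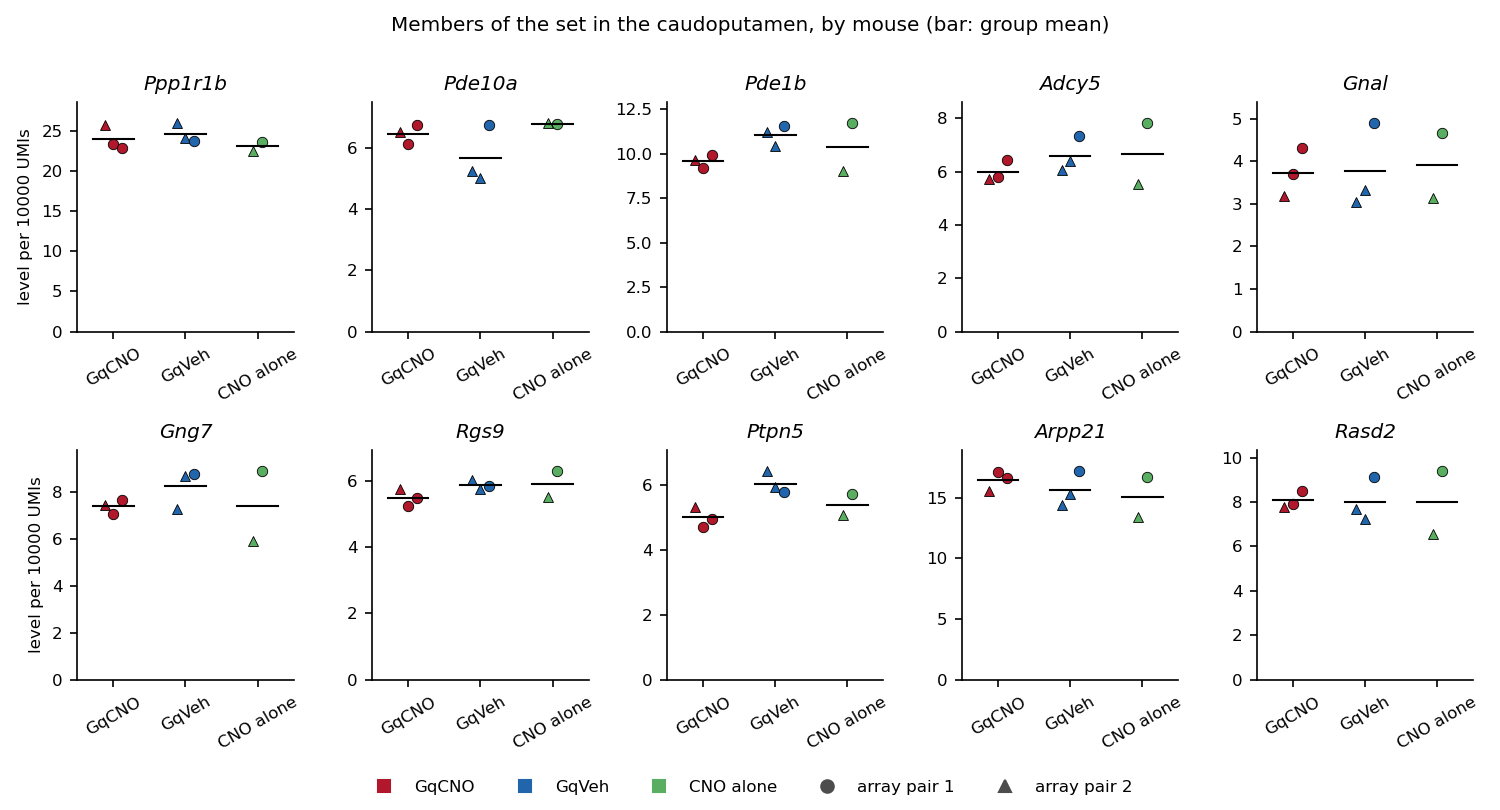
CP level of the 10 members per 10000 UMIs in each mouse, with GqCNO left of GqVeh and CNO alone. Shapes give the array pair and bars the group mean; Ptpn5 lies between 4.73 and 5.34 in GqCNO mice and between 5.79 and 6.44 in GqVeh mice, and no member separates the GqCNO mice from all 5 controls.

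The array pair, a midbrain and a striatal array holding the same 4 mice, had more members called than the treatment had, 4 against 0 in the CP. This comparison was added after the values had been seen. Array pair 1 (GqCNO 801 and 804, GqVeh 802, CNO alone C2W2) was higher than array pair 2 (GqCNO 781, GqVeh 784 and 785, CNO alone C1W7) in the CP for 4 of 10 members and lower for 0, where 19.9% of all tested genes were called higher and 9.07% lower. The 4 were Gnal (log2 difference 0.49 ± 0.08, adjusted p = 8.67e-05), Rasd2 (0.27 ± 0.08, adjusted p = 0.0134), Adcy5 (0.26 ± 0.08, adjusted p = 0.0184) and Arpp21 (0.21 ± 0.07, adjusted p = 0.0422). Gnal did not overlap between array pairs, with 3.70 to 4.90 in array pair 1 and 3.05 to 3.34 in array pair 2. Nor did Rasd2 (7.92 to 9.39 against 6.57 to 7.79) or Arpp21 (16.6 to 17.2 against 13.4 to 15.5). The share of all genes so placed was not counted.

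Within array pair 1, both GqCNO mice were below both control mice for 9 of 10 members, where 28% of all tested genes were, and above them for 0 (14.6%). The 9 include Ppp1r1b, with which the discs of the CP were picked. Within array pair 2, GqCNO mouse 781 was below all 3 controls for 0 of 10 members (20.6% of genes) and above them for 2 (25.5%). For Adcy5 the log2 difference between GqCNO and control mice was -0.31 within array pair 1 and -0.06 in array pair 2, and for Ptpn5 it was -0.25 and -0.11. Once the array pair was added as a block, Adcy5 (-0.20 ± 0.08), Pde1b (-0.20 ± 0.08) and Ptpn5 (-0.19 ± 0.08) had unadjusted p-values of 0.0186, 0.0239 and 0.0187. Their adjusted p-values were 0.352, 0.373 and 0.352, where 0.435% of genes were called and 6.37% were lower at an unadjusted p under 0.05.

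Outside the CP, no member was called in any of the other 5 regions between GqCNO mice and all controls by limma. At an unadjusted p under 0.05 there was 1 member in the LSX (Ptpn5), 2 in white matter (Arpp21 and Rasd2), 2 in the SN (Pde10a and Ptpn5), 1 in the VTA (Rasd2) and 0 in the thalamus, where 3.19%, 2.96%, 7.82%, 10.8% and 3.34% of genes were, and edgeR called 1, Ptpn5 in the SN. Of these, Pde10a in the SN passed the filter only through the GqCNO mice and Rasd2 in the VTA only through the controls, the groups where each was high, so neither p is a test of a difference. Of all tested genes 0% were called in the LSX and the thalamus, 0.0367% in white matter, 0.648% in the SN and 1.52% in the VTA. In the LSX and in white matter all 10 members were tested, with median log2 differences of 0.15 and 0.05 beside -0.04 and -0.01 over all genes. The SN fit took 7 members, without Ppp1r1b, Gng7 and Rgs9, the VTA fit 5, also without Pde10a and Arpp21, and the thalamus fit 9, without Rgs9, since the others fell under the filter of a mean of 0.25. Between GqVeh and CNO alone mice no member was called in the 6 regions by limma, where 0.0648% of genes were called in the SN, 0.0792% in the VTA and 0% elsewhere. At an unadjusted p under 0.05 there were Gng7 in white matter and Pde1b in the thalamus, where 4.16% and 7.84% of genes were, and none in the CP (3.68%), the LSX (0.96%), the SN (1.46%) or the VTA (2.04%).

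**Figure D4:**
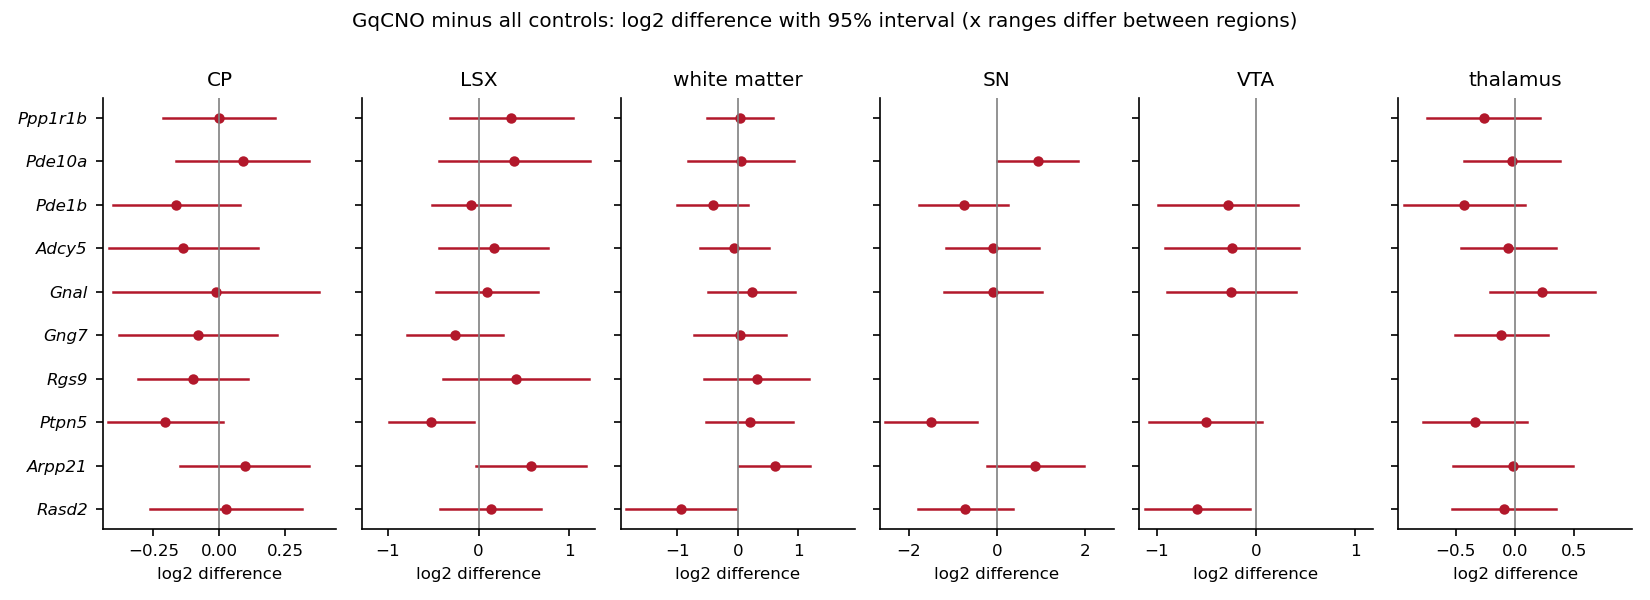
Log2 difference between GqCNO and all control mice with its 95% interval for each tested member in the 6 regions (n = 3 GqCNO and 5 control mice, 2 GqCNO mice in the thalamus; limma). The axis range differs between panels; CP intervals lie within -0.42 to 0.38, and the SN interval of Ptpn5 runs from -2.52 to -0.45.

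Ptpn5 was the member with the largest difference in the SN, where it was the only one with an unadjusted p under 0.05 in the same direction against both control groups (1.28% of 6174 tested genes were so lower). Its level was 0, 1.29 and 0.171 in GqCNO mice 781, 801 and 804, against 0.859, 2.11 and 2.62 in GqVeh mice 784, 785 and 802 and 1.81 and 2.38 in CNO alone mice C1W7 and C2W2. These levels rest on 0, 1 and 1 UMIs in GqCNO mice, against 1, 12 and 13 in GqVeh and 13 and 9 in CNO alone mice. GqCNO mouse 801 lay above GqVeh mouse 784, so the groups overlapped, and both values are 1 UMI. The 0 of GqCNO mouse 781 in 14717 UMIs allows a level of up to 2.51 (exact 95% interval for counting error only), which takes in 4 of the 5 control values. GqCNO mouse 804, the deepest of the group with 58362 UMIs, had an interval of 0.00434 to 0.955, which lies below 4 of the 5 control values.

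The log2 difference in the SN was -1.49 ± 0.53 (SE) from all controls (95% interval -2.52 to -0.45, unadjusted p = 0.00506, adjusted p = 0.312), -1.40 from GqVeh (unadjusted p = 0.0180, adjusted p = 0.780; 6.09% of genes had an unadjusted p under 0.05 and 0.194% were called) and -1.61 from CNO alone (unadjusted p = 0.0150, adjusted p = 0.623; 6.06% and 0.615%). The exact permutation test gave p = 0.0714 (0.670 after adjustment over 60 tests). The call depended on the method and on a single mouse: edgeR on the UMIs gave -2.92 with an adjusted p of 0.0405, and limma without GqCNO mouse 801 gave -2.03 with an adjusted p of 0.0238, while over the other alternatives the adjusted p lay between 0.0858 and 0.932. Within array pairs the differences were -1.45 and -2.01, and with a smaller or larger constant they were -2.53 and -1.05 (adjusted p = 0.228 and 0.364).

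Other transcripts moved in the same discs. In the SN of GqCNO mice, microglial markers summed to 23.1 to 35.3, against 1.06 to 18.9 in controls, and 2 of 6 tested ones were called higher. Astrocyte markers summed to 26.5 to 46.3, against 14.3 to 24.4 in controls (1 of 6 called higher), and blood cell genes summed to 7.47 to 32.1, against 0.202 to 18.5 in controls (3 of 4 called higher). Dopamine neuron markers, of which Th, Slc6a3 and Slc18a2 had served to choose discs, summed to 51.6, 9.0 and 16.6 in GqCNO mice 781, 801 and 804, against 28.3 to 64.5 in controls, and 2 of 6 were called lower. Discs rich in astrocyte or microglial markers had been left out by the authors, and the part of these cell types in the Ptpn5 difference was not tested.

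Across the brain, Ptpn5 had a log2 difference below 0 in 5 of the 6 regions, which share the same mice. In the VTA its level was 0.337, 0.659 and 1.24 in GqCNO mice, against 1.03, 1.55 and 1.52 in GqVeh and 1.11 and 0.858 in CNO alone mice (log2 difference -0.51, 95% interval -1.08 to 0.06). In the LSX it was 2.78, 3.35 and 1.99, against 2.88, 3.15 and 4.89 in GqVeh and 3.62 and 5.01 in CNO alone mice (-0.52, -0.99 to -0.05, unadjusted p = 0.0333, adjusted p = 0.911; 3.19% of genes had an unadjusted p under 0.05). In the thalamus it was 0.955 and 0.922 in GqCNO mice 781 and 804, below all 5 controls at 1.25, 1.34 and 1.49 in GqVeh and 1.60 and 0.990 in CNO alone mice, where 3.97% of genes were so placed (-0.34, -0.78 to 0.10). In white matter the order was mixed, with a log2 difference of 0.20 (-0.52 to 0.92). The difference between the SN and VTA responses of Ptpn5 was -0.98 ± 0.55 (adjusted p = 0.895, limma on differences within mice), and no member's response was called different between SN and VTA, CP and LSX, or CP and white matter (0% of genes in each).

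**Figure D5:**
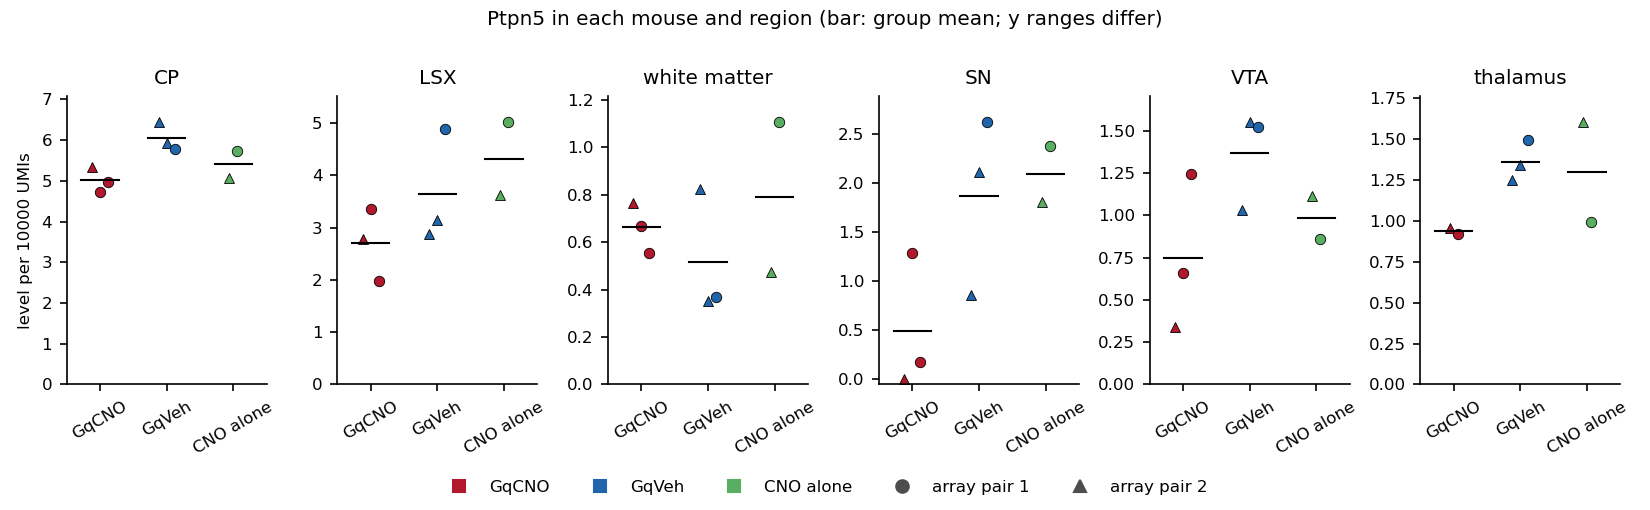
Ptpn5 level per 10000 UMIs in each mouse by region, with GqCNO left of GqVeh and CNO alone and bars at the group mean. In the SN the GqCNO mice lie at 0, 0.171 and 1.29 and the control mice between 0.859 and 2.62, and in the CP the GqCNO mice lie between 4.73 and 5.34.

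Rasd2 was the only tested member whose GqCNO and control mice did not overlap in a dopaminergic region. In the VTA its level was 0.112, 0.180 and 0 in GqCNO mice 781, 801 and 804 (1, 3 and 0 UMIs), against 0.392, 0.775 and 0.351 in GqVeh and 0.286 and 0.240 in CNO alone mice (8, 2, 3, 10 and 7 UMIs). All GqCNO mice were below all controls, where 4.86% of the 6312 tested genes were. Its mean was 0.0974 in GqCNO mice, under the filter of 0.25, and 0.409 in controls, so it was fitted only through the controls and its log2 difference of -0.59 is a description. The exact permutation test, run for all members without a filter, gave p = 0.0357 (0.670 after adjustment over 60 tests). It gave the same p for Ppp1r1b in the VTA, in the opposite direction (log2 difference 0.37). In the SN Rasd2 was 0, 0 and 0.514 in GqCNO mice, against 0.859, 0.526 and 0.807 in GqVeh and 0.139 and 0.529 in CNO alone mice, and it passed the filter there in the same way (means of 0.171 and 0.572).

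Over all 10 members, filtered or not, 7 had a log2 difference below 0 in the VTA. The median over all tested genes there was also below 0, at -0.06, and the share of all genes below 0 was not counted. Ppp1r1b, under the filter there, was at 0.225, 0.240 and 0.249 in GqCNO mice, against 0.0981, 0 and 0 in GqVeh and 0.143 and 0.137 in CNO alone mice, above all of them on 2, 4 and 1 UMIs (3.36% of the tested genes were so placed). In the VTA of GqCNO mice, dopamine neuron markers summed to 11.7 to 32.6, against 42.7 to 61.2 in controls, and microglial markers to 16.7 to 42.7, against 1.55 to 11. The dopamine neuron markers include Th, Slc6a3 and Slc18a2, which had served to choose discs. The part of either list in the differences of the set was not tested.

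In the LSX the 7 discs of GqCNO mouse 804 gave the highest level of the 8 mice for 7 of the 10 members. The share of all genes that were highest in this column was not counted, so this describes the column and not the set. Ppp1r1b was 1.61 there, against 0.539 to 0.835 in the other 7 mice, and Arpp21 was 2.98, against 0.926 to 1.37. Ptpn5 and Gng7 were lowest in the same column, at 1.99 and 0.497. Arpp21 had a log2 difference of 0.58 (95% interval -0.03 to 1.19) in the LSX and of 0.61 (0.02 to 1.2, unadjusted p = 0.0428, adjusted p = 0.998) in white matter, where its level was 1.38, 2.34 and 1.81 in GqCNO mice, against 1.59, 1.25 and 1.22 in GqVeh and 0.617 and 1.41 in CNO alone mice. Rasd2 in white matter was 0.345, 0.0837 and 0.830 in GqCNO mice and 0.539 to 0.902 in controls (-0.94, -1.84 to -0.04, unadjusted p = 0.0423). In the white matter columns blood cell genes summed to 27.5 to 35.5 in GqCNO mice and 6.14 to 14.3 in controls, with 4 of 5 called higher. Indirect-pathway markers summed to 1.28, 5.11 and 3.94 in GqCNO mice 781, 801 and 804 and to 1.5 to 2.67 in controls. Their part in the Arpp21 and Rasd2 differences was not tested.

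In the thalamus Pde1b had the largest log2 difference of the 9 members tested. Its level was 1.11 and 1.26 in GqCNO mice 781 and 804, against 1.58, 1.34 and 1.39 in GqVeh and 1.5 and 3.59 in CNO alone mice. Both GqCNO mice were thus lowest, where 3.97% of the 6399 tested genes were so placed. The log2 difference was -0.43 (95% interval -0.94 to 0.08) from all controls and -0.77 from CNO alone (unadjusted p = 0.0168; 9.38% of genes had an unadjusted p under 0.05 and 0% were called). CNO alone mouse C2W2, at 3.59, lay far from the other 4 controls (1.34 to 1.58), and its thalamus was 8 discs with 80837 UMIs. Without CNO alone mouse C1W7 the comparison with CNO alone rests on C2W2 only, so no test is read from it. In the SN Pde10a was 0.679, 1.29 and 0 in GqCNO mice, against 0.202 in GqVeh mouse 802 and 0 in the other 4 controls, on 1, 1, 0 and 1 UMIs. It passed the filter only through the GqCNO mice, where its mean was 0.655, against 0.0404 in controls, so its values are a description.

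The genes around the set in the same pathway were followed in 8 lists with 91 genes. In the CP of GqCNO mice no gene of these lists was called against all controls, and 3 of 79 tested (3.8%) had an unadjusted p under 0.05, near the 3.7% of all genes. The 3 were Arpp19, a phosphatase 2A inhibitor gene related to Ensa (10.8 ± 0.440 in GqCNO and 9.01 ± 0.346 in control mice, log2 difference 0.25, unadjusted p = 0.0193), Ppp1r2, an inhibitor of protein phosphatase 1 (0.37, unadjusted p = 0.0201), and Rgs2, another regulator of G protein signalling (-0.41, unadjusted p = 0.0252). Arpp19 was higher in all 3 GqCNO mice than in all 5 controls, where 1.43% of genes were. Among receptors the lowest unadjusted p belonged to the adenosine receptor Adora1 (-0.28, 95% interval -0.59 to 0.03) and the serotonin receptor Htr1b (0.33, -0.10 to 0.75).

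Further down the pathway the genes with the lowest p per list included the chaperone of Gnal, Ric8b (-0.11), and Gnas (0.10), the cyclases Adcy9 (0.21) and Adcy3 (0.07), and the protein kinase A anchor Akap5 and inhibitor Pkia (0.21 each). Others were the phosphodiesterases Pde4b (0.18) and Pde1a (-0.24), Rgs4 (-0.16), and the kinase Rps6ka5 (0.21). All of these 10 had an unadjusted p over 0.05 and an adjusted p of 0.999. Rgs4, which limits signalling through Gi and Gq, was at 6.31 to 6.56 in GqCNO mice and 6.82 to 7.44 in controls, without overlap (1.64% of genes were so placed).

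In the VTA 1 pathway gene was called, the dopamine receptor gene Drd2, which dopamine neurons carry as an autoreceptor. It averaged 0.317 ± 0.456 in GqCNO and 1.38 ± 0.594 in control mice (SD, n = 3 and 5), a log2 difference of -1.28 ± 0.32 (adjusted p = 0.0446). It was 1 of 57 pathway genes tested there (1.75%), beside 1.52% of all genes. In the same discs 3 of 5 tested dopamine neuron markers were called lower, with a median of -1.40, and their part in the Drd2 difference was not tested. This marker list holds Th, Slc6a3 and Slc18a2, with which the discs were chosen, so its calls are a description. In the SN Drd2 averaged 0.455 ± 0.394 and 1.82 ± 0.630 in GqCNO and control mice, with all 3 GqCNO mice below all controls (3.76% of genes), and was not called (-1.34 ± 0.53, adjusted p = 0.450). No other gene of the 8 lists was called in any region.

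Between regions the lists differed in direction (control mice; the genes named here were chosen after their values had been seen), where 13.1% of all genes were higher in the CP than in the LSX and 19% lower. Of the receptors, 8 of 8 tested were higher in the CP than in the LSX, such as Drd1 (2.47 ± 0.321 against 0.114 ± 0.0607) and the adenosine receptor Adora2a (2.01 ± 0.515 against 0.0357 ± 0.0312). The LSX mean of Adora2a lay under the filter for striatal regions, so it was fitted only through the CP, where it was high. Its call is thus a description, and the count of 8 includes it. Of the phosphatases and their inhibitors 8 of 13 were higher and 0 lower, with Ppp1r1a, a relative of Ppp1r1b, at a log2 difference of 1.73 ± 0.11. Of the other RGS genes and partners 5 of 7 were higher and 0 lower, with Rgs4 at 4.00 ± 0.17 and Rgs7bp, which anchors R7 family RGS proteins, at 2.49 ± 0.22.

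The G protein list went both ways, with 4 higher and 7 lower of 14 and a median of -0.23. Gnas, the stimulatory alpha subunit that most neurons use where striatal ones use Gnal, averaged 6.15 ± 0.234 in the CP and 35.1 ± 2.32 in the LSX (log2 difference -2.47 ± 0.13, adjusted p = 3.20e-07, lower in 5 of 5 mice). The beta subunit Gnb5, the partner of Rgs9, was higher in the CP (1.51 ± 0.12), as was Ric8b (1.04 ± 0.11). Other cyclases had 1 higher and 3 lower of 6, with Adcy2 at -1.03 ± 0.10, other phosphodiesterases 3 and 3 of 11, protein kinase A subunits and anchors 2 and 4 of 11, and kinases and nuclear effectors 5 and 1 of 13.

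The genes whose pattern was most like that of the set were ranked by Pearson's r with the mean of its 10 members over the 24 striatal columns (8 mice, 3 regions), which share mice and arrays, so r is a description. The 8 highest were Olfr1393 (0.970), Hpca (0.969), Gm50370 (0.969), Serpina9 (0.969), Fbxl16 (0.968), Atp2b1 (0.966), Baiap2 (0.965) and Gipc2 (0.961). Olfr1393 and Gm50370 had 0 UMIs in all LSX and white matter columns and a mean of under 0.1 in the CP. Among genes with a mean of at least 1 in the CP, a limit added after the values had been seen, Hpca, a neuronal calcium sensor gene, came first with means of 22.2 in the CP, 3.55 in the LSX and 2.29 in white matter, and Pdyn, the dynorphin precursor gene of direct-pathway neurons, followed Fbxl16, Atp2b1 and Baiap2 (0.954). Within the set, r with the mean of the other 9 members ran from 0.979 (Adcy5) to 0.677 (Ptpn5), with Gnal at 0.774 and Ppp1r1b at 0.888.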

How the data were processed

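The deposited tables hold average values per gene for each region of each mouse, made by the authors with Space Ranger on mm10 from Visium arrays and described by them as median-normalized. These deposited signal values were whole multiples of 1 step per column (100% of low values, within 0.05 steps), so UMIs were recovered from them. Columns were rescaled to 10000, and tests used limma 3.58.1 (R 4.3.3, mean-variance trend) on log2 of the value plus 0.05 (striatal) or 0.5 (midbrain), among genes with a mean of at least 0.05 or 0.25, over all 3 groups of a region. A fold change on this scale understates the change of low genes. Region comparisons used differences within the 5 control mice (constants 0.2 and 0.5, over genes that passed in either region). No test was made between midbrain and striatal arrays. P-values were adjusted over all tested genes by Benjamini-Hochberg, and a gene was called at an adjusted p under 0.05. edgeR 4.0.16 (quasi-likelihood, which called 1 gene in the CP and 76 in the SN for GqCNO against all controls), TMM scaling, other constants and filters, the array pair as a block, the methods' t-test and leaving out mice were alternatives. Exact permutation tests, two-sided, used scipy 1.17.1. The mouse was the replicate.

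All 10 members are named. Other pathway genes are named where called, or where they had the lowest 2 p-values of their list in the CP, and the 8 genes most like the set by r; 1 gene that this rule names is not reported here. The members and lists were chosen with earlier results of these data known. The fits were tested on simulated data: of genes changed 2-fold up and 0.5-fold, 94% and 95.4% were recovered in the CP (10757 genes), 7.69% and 2% in the SN (6105 genes), 16.7% and 16.4% in the VTA (6269 genes), 23.9% and 17.5% in the LSX (10988 genes) and 23.4% and 16.1% in white matter (10835 genes). Between CP and LSX, 28.8% of genes set 2-fold apart were recovered (11111 genes). The simulated counts had the same dispersion for all genes and no difference between array pairs. In the real CP 19.9% of genes were called higher and 9.07% lower in array pair 1, so these rates are not those of the real data. Intervals of UMIs cover counting error only. Promoter windows came from RefSeq (GRCm38.p6), with 8 of 10 members matched.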

Additional observations from a re-analysis of the deposited data

Results flagged for a closer look

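Of 60 groups of 5 control mice (10 members in 6 regions), 5 held a mouse far from the other 4, where chance gives about 1 in 20. Ppp1r1b was 1.36 in the thalamus of CNO alone mouse C2W2 (11 UMIs), and 0.398 to 0.559 in the other 4 controls. Pde1b was 3.59 in the same thalamus column (29 UMIs), and 1.34 to 1.58 in the others. Rasd2 was 1.29 in the thalamus of GqVeh mouse 802 (26 UMIs), and 0.741 to 0.850 in the others. Rasd2 was 0.775 in the VTA of GqVeh mouse 785 (2 UMIs), and 0.240 to 0.392 in the others. Pde10a was 0.202 in the SN of GqVeh mouse 802 (1 UMI), and 0 in the others.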

How the results depend on the processing

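In the SN, the count of members called between GqCNO and all controls was 1 with edgeR (Ptpn5, log2 difference -2.92), against 0 with limma, and ranged from 0 to 1 when mice were left out (1 without GqCNO mouse 801, Ptpn5 at -2.03; its range was -2.03 to -1.11, and it was -2.53 with a smaller constant and -1.05 with a larger one). In the thalamus, the count for GqCNO against CNO alone moved without CNO alone mouse C1W7. That leaves C2W2 as the lone CNO alone mouse, so the moved count is not read. Between SN and thalamus the 5 calls were 2 with a smaller constant (Pde10a and Ppp1r1b), 2 with no filter (Pde10a and Gnal) and 3 to 5 when mice were left out. Between VTA and thalamus the 5 calls were 3 with no filter (Gnal, Arpp21 and Ppp1r1b). With the filter, Ppp1r1b and Pde10a in the SN and Ppp1r1b and Arpp21 in the VTA were fitted only through the thalamus. Those calls are a description. Members near 0 in the CP changed sign: with the array pair as a block Ppp1r1b was 0.0156 and Rasd2 was -0.0475, with edgeR Ppp1r1b was 0.000306, and over left-out mice Ppp1r1b ranged from -0.0505 to 0.0316, Rasd2 from -0.0416 to 0.0860 and Gnal from -0.121 to 0.0939. The cause was not tested. The other 495 alternative counts of calls stayed at 0 where the count reported was 0, or else kept within 1.5 times it. A count that stayed at 0 says little outside the CP, where the simulation recovered fewer 2-fold changes. Since the simulated rates are not those of the real data, they do not show how much a count of 0 says in the CP. The array pair was the only block across groups, since mouse numbers differ between them, and as a block it changed no count of members called. Depth limits the midbrain most, since 1 UMI in the SN of GqCNO mouse 801 is a level of 1.29, and the discs of 2 GqCNO mice there number 1 each.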
